A study of Mus musculus with 8 samples.

Results

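The 43 genes described here are the ligands and receptors of the tumour necrosis factor (TNF) superfamilies that a name rule found among the 32098 gene rows of the table. The rule took every symbol of the form Tnfsf or Tnfrsf followed by a number and at most 1 letter, and the family genes Tnf, Lta, Ltb, Ltbr, Fas, Fasl, Cd40, Cd40lg, Cd27, Cd70, Ngfr and Edar. It used names and no measured value. Of the 43 genes, 17 encode ligands and 26 encode receptors. A level of at least 1 FPKM (fragments per kilobase of exon, scaled to the size of the library) in at least 4 of the 8 tumours was reached by 26 of them, which were tested, and 17 lay below this filter.

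RNA was sequenced from 8 whole tumours of 4T1, a mouse mammary carcinoma cell line that is grown in mice, with the genotype given as WT. The RI group (replicates 1, 2, 4 and 5) had radiation in combination with an immune checkpoint inhibitor. The ICI group (replicates 1, 2, 3 and 4) had the inhibitor alone, so the inhibitor was common to all 8 tumours and no untreated group enters the comparison. The inhibitor, the radiation dose and field, the time of harvest, and the strain and age of the mice are not named in the labels. The design text speaks of 3 replicates per group, but 4 were listed for each and all were used. Nothing in the labels states that the tumours of a group came from separate mice, so p-values measure only the spread between these samples, which may in part be technical.

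TNF superfamily ligands are trimeric proteins, mostly held on the cell surface until they are shed or meet a receptor on a neighbouring cell. Their receptors share cysteine-rich repeats outside the cell and divide by what they carry inside. Death domain receptors can recruit FADD and caspase-8, the other signalling receptors bind TRAF adaptors that lead to NF-kB, and decoy receptors bind ligand without a signal. In tumours the family is known for T cell costimulation, for killing through Fas and TRAIL, and for inflammatory signalling by TNF itself.

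Libraries held between 27012800 and 42622400 fragments, worked out from the spacing of the lowest FPKM values. In RI 4 only 82.5% of the fragments lay in genes of the annotation used here, against at least 98.9% in every other tumour, so FPKM in RI 4 are scaled low relative to the rest. The RI 4 column summed to 717092 FPKM, with 342900 in the row Gm55118, against sums of 358243 to 494399 FPKM in the other 7. TPM divides by these sums and so lowers RI 4 further. The epithelial keratins Krt8 and Krt18 were abundant, at 510 ± 188 and 408 ± 114 FPKM in RI tumours and 698 ± 262 and 621 ± 196 FPKM in ICI tumours (SD, n = 4 each). The epithelial adhesion gene Epcam was low, at 0.345 ± 0.486 FPKM in RI tumours and 2.08 ± 2.46 FPKM in ICI tumours. The tumour ICI 1 stood apart. The summed level of 9 neutrophil markers was 20.02 to 80.8 FPKM in RI tumours, 22480 FPKM in ICI 1 and 214 to 673 FPKM in the other ICI tumours. The sum of 5 plasma cell markers was 3.90 to 28.4 FPKM in RI tumours, against 1452 FPKM in ICI 1 and 61.4 to 107 FPKM in the other ICI tumours. For both sums every ICI tumour, not ICI 1 alone, lay above every RI tumour. The level in ICI 1 is given apart for the family genes in which it lay far from the other ICI tumours. Fits without ICI 1 are given only for some genes with differences of at least 0.3. RI 4 was the lowest tumour for 9 family genes and the highest for 0. These counts do not single it out, as ICI 1 was also the lowest for 9 and ICI 2 also the highest for 0. As FPKM in RI 4 are scaled low, those of every tumour were also rescaled to its fragments in annotated genes. This setting was added after the data were seen. In bulk tissue, fewer cells of a type and less RNA per cell cannot be told apart.

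The 4 receptor genes that rose are shown first by the sequence before their starts, because they moved in 1 direction and because the letters let a reader compare what lies there. RefSeq windows of 250 bases before a start (GRCm38.p6) were matched for 33 of the 43 genes, 37 windows in all. All 4 genes lie on the minus strand and each sequence is written 5′ to 3′ on the gene's strand. Capitals mark, on either strand, the GC box GGGCGG, the interferon regulatory factor (IRF) site AANNGAAA, the gamma-activated site TTCNNNGAA, the AP-1 site TGANTCA, the NF-kB consensus and the p53 half-site, wherever a script found them. Exon bases of the same gene were left out, except for the short Tnfrsf14 stretch, which lies in an exon of 1 annotated transcript.
Tnfrsf19, chr14:61037988-61038237: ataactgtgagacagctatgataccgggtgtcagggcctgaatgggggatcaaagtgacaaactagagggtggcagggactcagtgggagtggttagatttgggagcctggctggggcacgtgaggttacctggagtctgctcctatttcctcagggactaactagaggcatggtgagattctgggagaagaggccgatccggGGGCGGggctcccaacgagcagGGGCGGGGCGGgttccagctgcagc
Ngfr, chr11:95587736-95587948: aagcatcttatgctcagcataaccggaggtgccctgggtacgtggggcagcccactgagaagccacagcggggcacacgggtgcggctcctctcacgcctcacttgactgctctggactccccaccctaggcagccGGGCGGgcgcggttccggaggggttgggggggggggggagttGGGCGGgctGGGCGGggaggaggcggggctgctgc
Tnfrsf1b, chr4:145246871-145247120: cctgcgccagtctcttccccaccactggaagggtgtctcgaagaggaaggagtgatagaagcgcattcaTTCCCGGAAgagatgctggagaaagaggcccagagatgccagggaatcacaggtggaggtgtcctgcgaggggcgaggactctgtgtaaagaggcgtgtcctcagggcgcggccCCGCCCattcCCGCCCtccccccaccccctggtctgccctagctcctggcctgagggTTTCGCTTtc
Tnfrsf14, chr4:154928120-154928149: attttttcTTTCATTTTCACTTttccttgc

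The Tnfrsf19 stretch, before a start inside the annotated gene, carried 3 GC boxes, of which 2 share a base. A second RefSeq window of Tnfrsf19, chr14:61046856-61047105, near the annotated 5′ end, held none of the marked motifs and is not printed. The Ngfr stretch also carried 3 GC boxes. Tnfrsf1b carried 2 GC boxes and 1 IRF site on the opposite strand, and 1 gamma-activated site. The 30 bases of Tnfrsf14 hold 2 overlapping IRF sites on the opposite strand. A GC box was found in 32.7% of the 32851 RefSeq windows of this length and in 16 of the 37 windows of the family. An IRF site was found in 21.3% of all windows and in 13 of the 37, among them those of Fas, Tnfsf10, Tnfrsf9 and Tnfrsf21. A gamma-activated site was found in 7.02% of all windows and in 8 of the 37, including Fas, Ltb, Lta and Tnfrsf1a. The NF-kB consensus was found in 3.9% of all windows and in 3 of the family, Ltb, Tnfrsf8 and Tnfrsf9. The AP-1 letters were in 6.75% of all windows and in 6 of the 37, and the p53 half-site was in 7.13% of all windows and in 2 of the 37, Fasl and Tnfsf13b. Windows are counted once per motif and the motifs may overlap. These matches are descriptions of letters only.

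Across the family, levels spanned from near 0 to above 100 FPKM, and receptors filled the top of the order. Tnfrsf12a, the receptor of the ligand TWEAK, had the highest mean over the 8 tumours at 111 FPKM. It was followed by the TNF receptor Tnfrsf1a at 47.8 FPKM, the lymphotoxin receptor Ltbr at 33.3 FPKM and the second TNF receptor, Tnfrsf1b, at 25.1 FPKM. The next 3 genes, Tnfrsf9, Tnfrsf10b and Tnfsf9, had means of 15.2, 14.7 and 14.2 FPKM, and their ranges over the tumours overlapped, so their order is not resolved. Of the 43 genes, 10 had means above 10 FPKM, and only Tnfsf9 and Ltb among these 10 are ligands. The mean of Ltb, 10.8 FPKM, rests on ICI 1, and over the other 7 tumours it is 4.84 FPKM. At the other end, 8 genes stayed under 1 FPKM in every tumour. Edar, Tnfrsf17, Cd40lg and Cd70 were the lowest, each with a mean under 0.1 FPKM and with 0 in at least 4 of the 8 tumours.

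**Figure D1:**
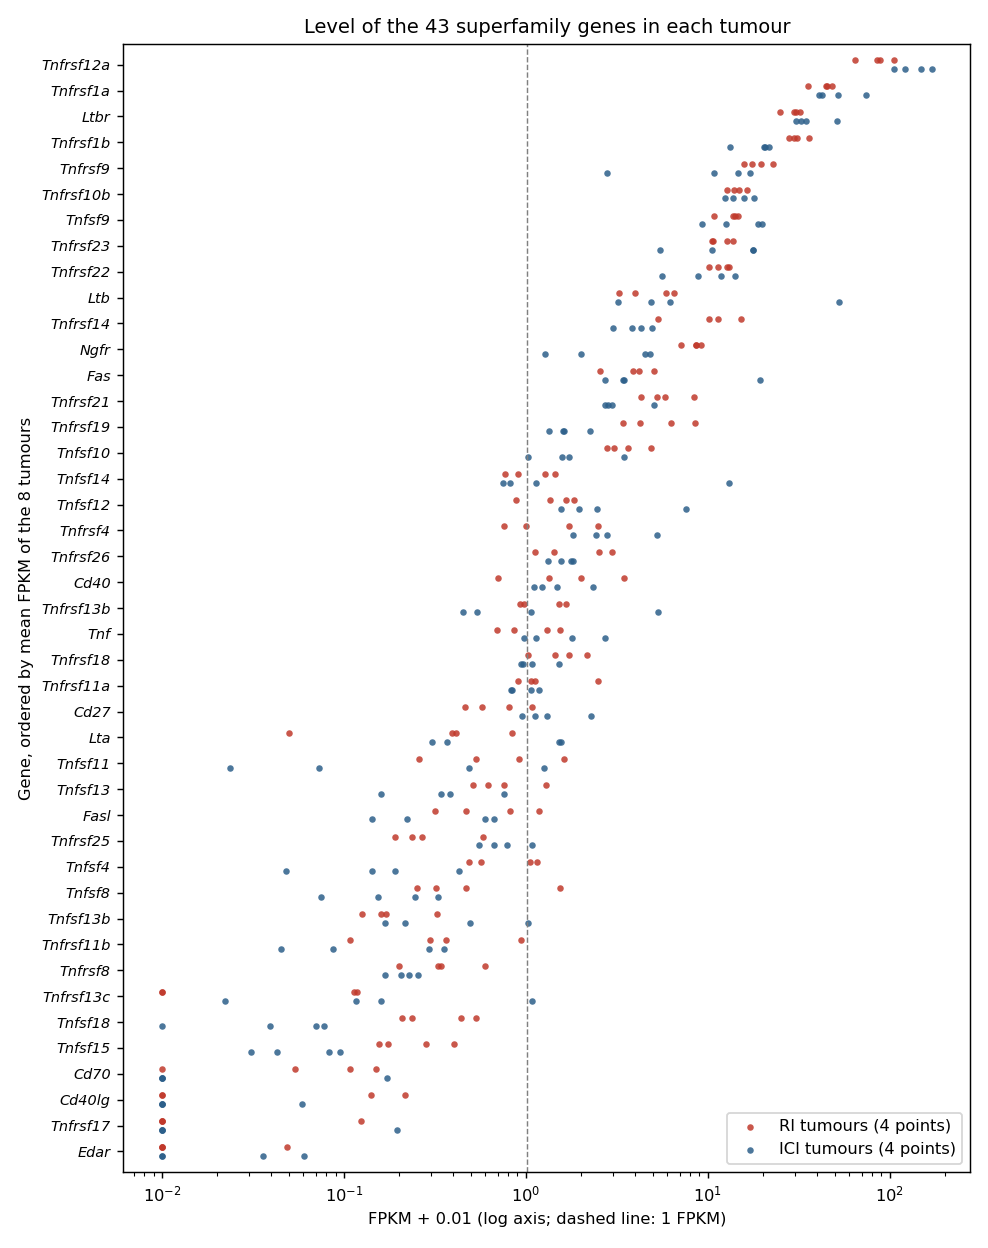
FPKM + 0.01 (log axis) of each of the 43 genes, ordered from the highest to the lowest mean, with 1 point per tumour (RI red, ICI blue) and a dashed line at 1 FPKM. The top 4 genes, with means of 25.1 to 111 FPKM, are receptors, and the lowest 4, each with a mean under 0.1 FPKM, are at 0 in at least 4 tumours.

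The first question the design poses is which family genes differed when radiation was added to the inhibitor. In RI tumours 4 receptor genes were higher and no family gene was lower, by limma on log2(FPKM + 1) at a Benjamini-Hochberg adjusted p under 0.05. Tnfrsf19, Ngfr, Tnfrsf14 and Tnfrsf1b rose, 4 of the 26 tested genes, and all 4 are receptors, while 0 of the 6 tested ligands were called. Among all 13439 genes tested, 17.7% were called, 11.1% higher and 6.6% lower in RI tumours. Under median centring the split of all calls turned to 1500 higher and 1623 lower, against 1486 higher and 887 lower in the test used here. The family's share of calls lies near that of all genes and is no finding about the family. In a fit of all 32098 rows without the filter all 4 missed the threshold, with limma adjusted p-values of 0.0556 to 0.0891. At an unadjusted p under 0.05, 6 of the 26 family genes were higher and 2, Tnfrsf12a and Tnfrsf4, were lower, where 35.9% of all genes tested passed it, 20.4% higher and 15.5% lower, so nothing is read from this count. The same scale gave a median difference, RI minus ICI, of -0.01 for the 26 tested genes, 0.14 for the 20 tested receptors and 0.01 for all genes tested. All 4 RI values lay above all 4 ICI values for these 4 genes, and for 16.7% of all genes tested, while no tested family gene had all RI values below, a pattern that 11.2% of all genes showed.

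**Figure D2:**
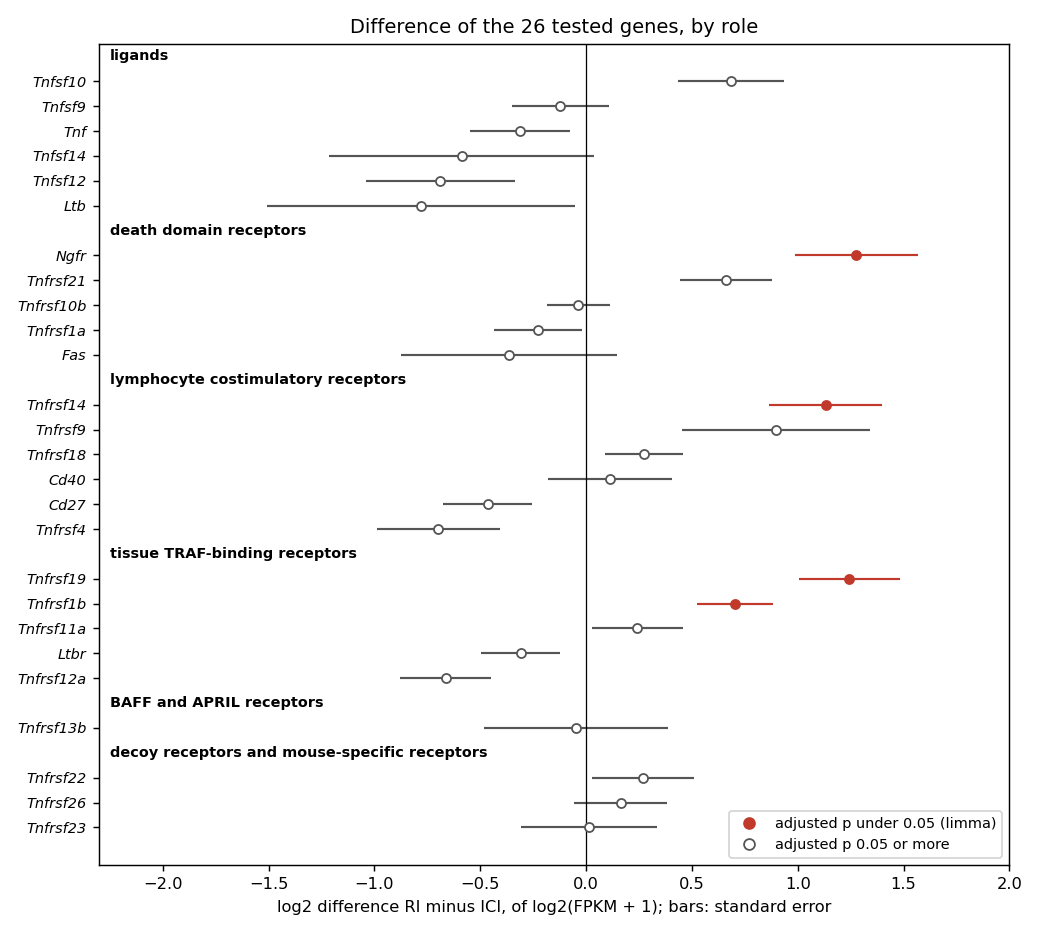
Difference RI minus ICI of log2(FPKM + 1) for the 26 tested genes, grouped by role, with bars of 1 standard error; filled red points have an adjusted p under 0.05 (limma). The 4 filled points are receptors, with differences between 0.71 and 1.28, and 13 of the 26 points lie right of 0.

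A group of 5 receptors that bind TRAF adaptors was set apart from those of lymphocyte costimulation and B cell survival. All 5 were tested, 2 rose, Tnfrsf19 and Tnfrsf1b, and none fell. Among all genes tested 11.1% were higher and 6.6% lower. Nothing is read from the count in this group or in the groups that follow, as each is small. Tnfrsf19 (ENSMUSG00000060548, chr14:60963875-61046490 on GRCm38), also called TROY, encodes a receptor known from embryonic, neural and hair follicle tissue. It measured 6.31, 4.25, 3.42 and 8.48 FPKM in RI 1, 2, 4 and 5, against 1.61, 2.23, 1.33 and 1.597 FPKM in ICI 1 to 4. The lowest RI tumour, RI 4, stood above the highest ICI tumour, and RI tumours varied more among themselves. The means were 5.61 ± 2.26 FPKM in RI tumours and 1.69 ± 0.379 FPKM in ICI tumours (SD, n = 4 each). The difference was 1.24 ± 0.24 (SE) on the log2 scale with a limma adjusted p of 0.0153. It was called with any single tumour left out except ICI 4, without which the limma adjusted p was 0.0530.

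Tnfrsf1b (chr4:145213463-145246870) encodes the TNF receptor without a death domain, found on regulatory T cells and myeloid cells. Its levels were 36.2, 31.1, 27.9 and 29.7 FPKM in the RI tumours, against 20.6, 20.4, 21.7 and 13.2 FPKM in the ICI tumours. The groups did not overlap, and ICI 4 was the low tumour of its group. Means were 31.2 ± 3.58 FPKM in RI tumours and 19.0 ± 3.92 FPKM in ICI tumours, a log2 difference of 0.71 ± 0.18 (SE; limma adjusted p = 0.0298). The call was lost without RI 1, RI 2, RI 5 or ICI 4, with limma adjusted p-values of 0.0780, 0.0758, 0.0616 and 0.0741, and the adjusted p was 0.357 on values rescaled to TPM. The other TNF receptor, Tnfrsf1a, which carries a death domain, had 35.5 to 48.2 FPKM in RI tumours and 40.7 to 73.7 FPKM in ICI tumours, with an adjusted p of 0.456.

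The most abundant gene of the family, Tnfrsf12a (chr17:23675445-23677468), encodes Fn14, a growth-factor-induced receptor whose ligand is TWEAK. It had 88.0, 84.6, 64.5 and 106 FPKM in RI tumours, against 105, 149, 121 and 171 FPKM in ICI tumours. RI 5 and ICI 1 were nearly equal, so the groups overlapped through this pair alone. Means were 85.7 ± 17.02 FPKM in RI tumours and 137 ± 29.0 FPKM in ICI tumours, and the difference of -0.66 ± 0.21 (SE) missed the threshold with a limma adjusted p of 0.0593. Without ICI 1 the adjusted p was 0.0256, and voom on recovered fragments gave 0.0322, so the count of family genes that fell is 0 or 1 by the setting. With a length and GC correction the difference shrank to -0.40 (adjusted p = 0.133), and on TPM the adjusted p was 0.588. Ltbr, the receptor of lymphotoxin that organises lymphoid tissue, ranged from 24.8 to 32.0 FPKM in RI tumours and from 30.4 to 51.4 FPKM in ICI tumours (difference -0.31, adjusted p = 0.260). Tnfrsf11a, the receptor RANK of bone and mammary gland, had 0.900 to 2.49 FPKM in RI tumours and 0.816 to 1.16 FPKM in ICI tumours, and its adjusted p was 0.447.

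**Figure D3:**
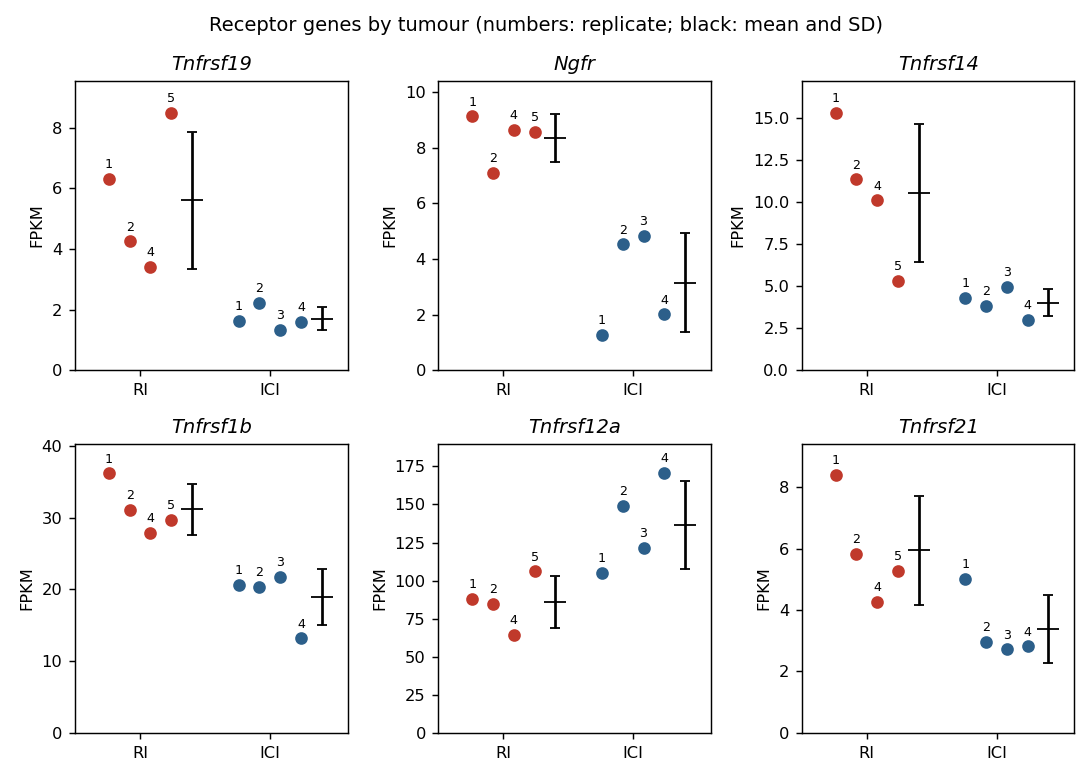
FPKM of 6 receptor genes in each tumour (numbers give the replicate), RI in red and ICI in blue, with the mean and SD in black beside each group. Tnfrsf19, Ngfr, Tnfrsf14 and Tnfrsf1b have every RI tumour above every ICI tumour, whereas Tnfrsf12a (85.7 and 137 FPKM on average) and Tnfrsf21 overlap by a single pair of tumours or a single ICI tumour.

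Of the death domain receptors, 5 of 7 were tested and 1, Ngfr, rose, where 11.1% of all genes tested were higher. Ngfr (chr11:95568818-95587735) encodes p75, the low-affinity receptor of nerve growth factor and other neurotrophins. It measured 9.12, 7.10, 8.65 and 8.55 FPKM in RI tumours, against 1.27, 4.52, 4.81 and 2.01 FPKM in ICI tumours. The RI values were close together and the ICI values formed a lower pair, ICI 1 and ICI 4, and a higher pair. Means were 8.36 ± 0.873 FPKM in RI tumours and 3.15 ± 1.78 FPKM in ICI tumours, a difference of 1.28 ± 0.29 (SE) with a limma adjusted p of 0.0228. Leaving out ICI 4 gave an adjusted p of 0.0712, and leaving out RI 1, 2, 4 or 5 gave 0.0551, 0.0521, 0.0505 or 0.0551, so the call needed each of these 5 tumours. Schwann cell markers, which mark a cell type known for p75, summed to 0.610 to 2.57 FPKM in RI tumours and 0.498 to 5.45 FPKM in ICI tumours, with 0 of 5 markers reaching the filter.

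Tnfrsf21, the death receptor DR6, had 8.41, 5.83, 4.27 and 5.26 FPKM in RI tumours, against 5.02, 2.97, 2.72 and 2.81 FPKM in ICI tumours. Only ICI 1 reached into the RI range. The difference of 0.66 had an adjusted p of 0.0633, and 0.0191 without ICI 1. Tnfrsf10b, the death receptor of TRAIL in the mouse, had 12.8 to 16.4 FPKM in RI tumours and 12.3 to 17.9 FPKM in ICI tumours (adjusted p = 0.876). Fas, the receptor of Fas ligand, lay between 2.53 and 5.08 FPKM in RI tumours and between 2.70 and 3.45 FPKM in 3 of the ICI tumours, and was 19.4 FPKM in ICI 1. Its difference of -0.36 (adjusted p = 0.638) changed sign to 0.21 without ICI 1. Below the filter, Tnfrsf25, the death receptor DR3 of lymphocytes, had 0.181 to 0.573 FPKM in RI tumours and 0.544 to 1.07 FPKM in ICI tumours. In a fit of all 32098 rows without the filter, in which 0.751% of rows were called, its adjusted p was 0.199. Edar, the receptor of ectodysplasin in skin appendages, had at most 6 fragments in any tumour.

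Receptors that costimulate lymphocytes were tested for 6 of 7 genes, and 1, Tnfrsf14, rose, where 11.1% of all genes tested were higher. Tnfrsf14 (chr4:154921933-154928563) encodes HVEM, which binds the ligand LIGHT and the inhibitory receptor BTLA. It had 15.3, 11.3, 10.1 and 5.32 FPKM in RI tumours, against 4.31, 3.83, 4.95 and 3.01 FPKM in ICI tumours. RI 5 was only just above ICI 3, and the other RI tumours were at least 10.1 FPKM. Means were 10.5 ± 4.11 FPKM in RI tumours and 4.02 ± 0.817 FPKM in ICI tumours, a difference of 1.13 ± 0.27 (SE; limma adjusted p = 0.0249). The adjusted p was 0.0527 on TPM, and 0.0766, 0.0551, 0.0667 and 0.0534 without ICI 4, RI 1, RI 2 and RI 4.

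Tnfrsf9, an inducible costimulator of activated T cells, was the most abundant of these receptors. It had 19.7, 17.5, 15.8 and 22.9 FPKM in RI tumours, against 2.80, 14.7, 17.1 and 10.8 FPKM in ICI tumours. The gap came largely from ICI 1, and the groups overlapped between 15.8 and 17.1 FPKM. The difference was 0.90 with an adjusted p of 0.181, and 0.40 with an adjusted p of 0.138 without ICI 1. Tnfrsf4, the costimulator OX40, had 0.752 to 2.47 FPKM in RI tumours and 1.80 to 5.27 FPKM in ICI tumours, a difference of -0.70 with an adjusted p of 0.119. Cd27, a costimulator of T cells, had 0.454 to 1.07 FPKM in RI tumours and 0.948 to 2.27 FPKM in ICI tumours (difference -0.46, adjusted p = 0.146). Tnfrsf18, the receptor GITR that is high on regulatory T cells, and Cd40, the receptor by which T cells help B cells and dendritic cells, gave adjusted p-values of 0.315 and 0.808. Tnfrsf18 shares 27.2% of its exon bases with an antisense gene, so its level is uncertain. Tnfrsf8, the receptor CD30, stayed at or under 0.589 FPKM in every tumour and lay below the filter.

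T cell markers set beside these receptors summed to 7.45 to 18.5 FPKM in RI tumours and 10.5 to 28.4 FPKM in ICI tumours, and 1 of 5 tested markers, Trac, fell. The highest sum, 28.4 FPKM, was that of ICI 1, the tumour in which Tnfrsf9 was lowest at 2.80 FPKM. Which cells held the Tnfrsf9 RNA was not tested. Of the regulatory T cell markers 1 of 3 tested rose, Il2ra, at 2.05 ± 0.903 FPKM in RI tumours and 0.307 ± 0.180 FPKM in ICI tumours (adjusted p = 0.0153). Foxp3, the defining gene of those cells, was near 0 at 0.101 ± 0.0667 FPKM in RI tumours and 0.173 ± 0.0423 FPKM in ICI tumours. Macrophage markers rose for 2 of 8 genes, Adgre1 and Mrc1, and summed to 334 to 827 FPKM in RI tumours and 344 to 437 FPKM in ICI tumours. Fibroblast markers rose for 4 of 7 tested genes and summed to 104 to 511 FPKM in RI tumours and 48.7 to 68.0 FPKM in ICI tumours. Mast cell markers rose for 2 of 4 tested genes and summed to 7.89 to 31.4 FPKM in RI tumours and 2.34 to 7.91 FPKM in ICI tumours. Skeletal muscle markers rose for 2 of 5 tested genes, with sums of 90.4 to 502 FPKM in RI tumours and 1.34 to 199 FPKM in ICI tumours. Neutrophil markers fell for 2 of 8 tested genes, S100a8 and S100a9, and plasma cell markers for 2 of 3, Igha and Igkc. Of the skin keratinocyte and hair markers 1 was tested, Krt10, and it fell. For comparison with these counts, 11.1% of all genes tested were higher and 6.6% lower in RI tumours. No list had a marker measured at 0 in every tumour. The part of these cell types in the rise of the 4 receptors was not tested.

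The receptors of the B cell survival factors BAFF and APRIL were low, and 1 of 3 was tested. Tnfrsf13b, the receptor TACI, had 0.921 to 1.66 FPKM in RI tumours and 0.442 to 1.06 FPKM in 3 of the ICI tumours, and was 5.33 FPKM in ICI 1 (adjusted p = 0.952). The sign of its difference changed among the fits with 1 tumour left out. Tnfrsf13c, the BAFF receptor of mature B cells, was at or under 0.109 FPKM in RI tumours and 1.07 FPKM in ICI 1. Tnfrsf17, the plasma cell receptor BCMA, had 3 fragments in all RI tumours together and 5 in all ICI tumours together. B cell markers summed to 1.43 to 4.38 FPKM in RI tumours, 21.6 FPKM in ICI 1 and at most 5.66 FPKM in the other ICI tumours.

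Of the decoy receptors and the mouse receptor Tnfrsf26, 3 of 4 were tested and 0 were called by limma, with 0 at an unadjusted p under 0.05 and 0 by voom. Tnfrsf23 and Tnfrsf22, decoy receptors of TRAIL in the mouse, averaged 11.9 ± 1.59 and 11.8 ± 1.35 FPKM in RI tumours and 12.9 ± 5.99 and 10.1 ± 3.71 FPKM in ICI tumours. ICI 1 was the lowest tumour for both, at 5.42 and 5.57 FPKM. Their adjusted p-values were 0.984 and 0.447, and that of the neighbouring Tnfrsf26 was 0.623. These 3 genes lie side by side on chromosome 7, with 6084 bases between Tnfrsf26 and Tnfrsf22 and 16148 between Tnfrsf22 and Tnfrsf23. As they are near copies of one another, reads may have been shared between them and their separate levels are uncertain. Tnfrsf11b, osteoprotegerin, the soluble decoy of RANK ligand, had 0.0975 to 0.932 FPKM in RI tumours and 0.0352 to 0.345 FPKM in ICI tumours, below the filter.

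None of the 6 tested ligands was called by limma in either direction, 1 had an unadjusted p under 0.05, and voom called 1, in both cases Tnfsf10. Of all genes, 35.9% had an unadjusted p under 0.05, and voom called 18.1% higher and 7.97% lower. A negative difference was found for 5 of the 6 ligands, and for 3 of the 6 without ICI 1. Tnfsf10, the death ligand TRAIL, had 4.89, 3.65, 3.03 and 2.79 FPKM in RI tumours, against 3.44, 1.58, 1.71 and 1.02 FPKM in ICI tumours. Without ICI 1 the groups were apart, and the adjusted p was 0.0825 with ICI 1 and 0.0151 without it, for a difference of 0.68 and 0.90. Tnfsf9, the ligand of Tnfrsf9, was the most abundant ligand, with 13.7, 14.7, 14.1 and 10.8 FPKM in RI tumours, against 9.27, 18.9, 19.8 and 12.6 FPKM in ICI tumours. The RI range lay within the ICI range and the adjusted p was 0.730. Tnfsf9 shares 14.9% of its exon bases with a gene on the opposite strand, so its level is uncertain. Tnf, the founding cytokine of the family, had 1.54, 1.29, 0.855 and 0.687 FPKM in RI tumours, against 2.70, 0.968, 1.13 and 1.78 FPKM in ICI tumours. The difference was -0.31 with an adjusted p of 0.369, and it shrank to -0.14 without ICI 1.

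In the remaining tested ligands ICI 1 was far above the other tumours. Ltb, the membrane anchor of lymphotoxin, had 3.24 to 6.54 FPKM in RI tumours and 3.19 to 6.20 FPKM in ICI 2, 3 and 4, but 52.8 FPKM in ICI 1. Tnfsf14, the ligand LIGHT, had 0.762 to 1.44 FPKM in RI tumours and 0.738 to 1.13 FPKM in ICI 2, 3 and 4, but 13.03 FPKM in ICI 1. Tnfsf12, the ligand TWEAK of Tnfrsf12a, had 0.871 to 1.83 FPKM in RI tumours and 1.55 to 2.47 FPKM in ICI 2, 3 and 4, but 7.53 FPKM in ICI 1. In each case ICI 1 was over 3 times the highest of the other ICI tumours, 11.5 times for Tnfsf14, 8.52 times for Ltb and 3.06 times for Tnfsf12. Their differences of -0.78 (Ltb), -0.59 (Tnfsf14) and -0.69 (Tnfsf12) had adjusted p-values of 0.470, 0.527 and 0.192. Without ICI 1 they were 0.03, 0.14 and -0.31. Tnfsf12 and its neighbour Tnfsf13, the ligand APRIL, share 48.3% and 60.0% of their exon bases with the readthrough gene Tnfsfm13, so reads may have been split between these models.

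**Figure D4:**
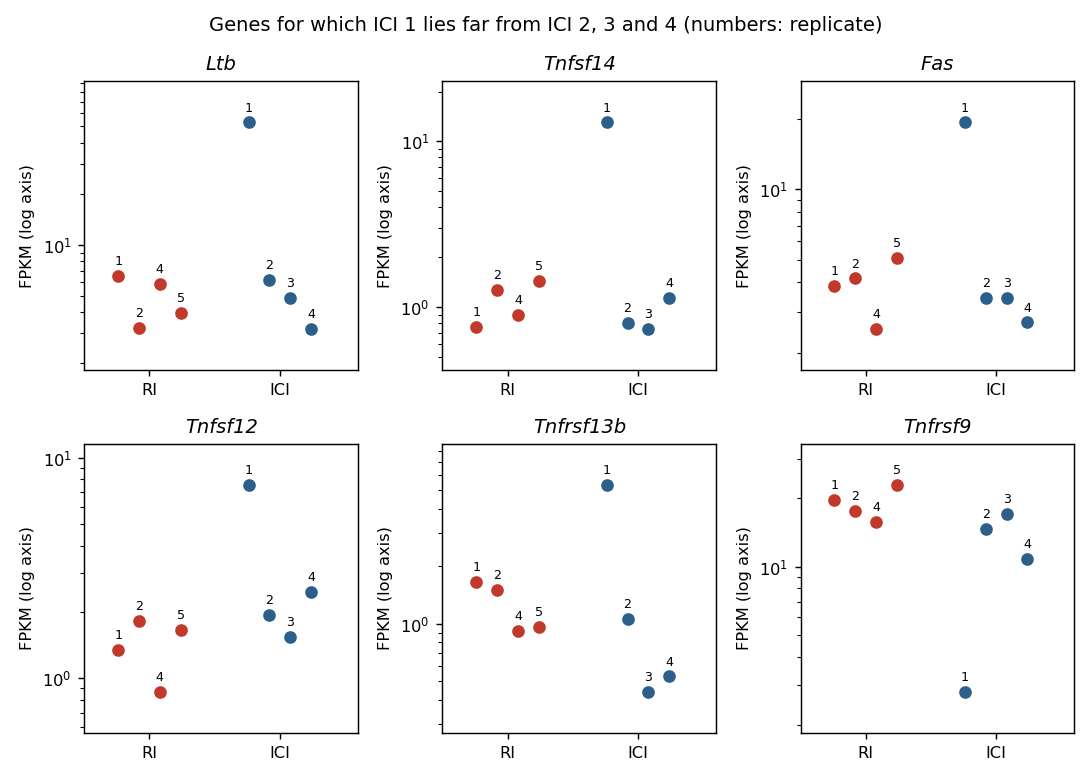
FPKM (log axis) of 6 genes in each tumour (numbers give the replicate), RI in red and ICI in blue. ICI 1 lies far above the other 7 tumours for Ltb (52.8 FPKM), Tnfsf14 (13.03), Fas (19.4), Tnfsf12 (7.53) and Tnfrsf13b (5.33), and far below them for Tnfrsf9 (2.80).

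Over all 43 genes, ICI 1 was the highest tumour for 16 and the lowest for 9. The neutrophil, plasma cell and B cell marker sums were also highest there. So were the endothelial markers, at 294 FPKM in ICI 1, 16.8 to 48.2 FPKM in RI tumours and at most 44.1 FPKM in the other ICI tumours. The T cell, natural killer cell and dendritic cell marker sums were highest in ICI 1 too, at 28.4, 9.81 and 9.56 FPKM. The part of these cells in the levels of Ltb, Tnfsf14, Fas, Tnfsf12 and Tnfrsf13b in ICI 1 was not tested. Removing ICI 1 left Tnfrsf19, Ngfr, Tnfrsf14 and Tnfrsf1b called and added Tnfrsf21 and Tnfsf10, so 6 rose and 1, Tnfrsf12a, fell. In that fit 11.7% of all genes were higher and 8.29% were lower. Under voom on recovered fragments the same 6 genes rose and Tnfrsf12a fell, where 18.1% of all genes were higher and 7.97% were lower. On TPM only Ngfr and Tnfrsf19 were called among the family, with 2.08% of all genes called, 1.43% higher and 0.655% lower. With each tumour rescaled to its annotated fragments, Tnfrsf19, Ngfr, Tnfrsf14 and Tnfrsf1b had adjusted p-values of 0.00814, 0.0167, 0.0180 and 0.0150, Tnfrsf21 also rose (0.0326) and Tnfrsf12a fell (0.0414), where 17.1% of all genes were higher and 8.39% were lower.

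Below the filter, 3 ligands had every RI tumour above every ICI tumour, a pattern that 1.5% of the 18659 genes below the filter showed. They were Tnfsf4, Tnfsf18 and Tnfsf15, and no family gene below the filter had every RI tumour lower, against 2.38% of those genes. The 18659 genes include any with a value above 0 in a single tumour and were not matched to these ligands in level. Among the tested genes 16.7% had all RI values above, so nothing is read from this count about the family. Tnfsf4 (chr1:161395409-161418410) encodes the ligand of OX40 on antigen-presenting cells. It had 1.05, 0.557, 0.478 and 1.15 FPKM in RI tumours, from 52, 33, 32 and 90 fragments, against 0.181, 0.417, 0.133 and 0.0383 FPKM in ICI tumours, from 11, 31, 9 and 3 fragments. RI 4 and ICI 2 were nearly equal. The no-filter difference was 0.59 with an adjusted p of 0.133, so the gene was not called.

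Tnfsf18 (chr1:161494655-161505290), the ligand of GITR, lies 76245 bases from Tnfsf4. It had 29, 15, 15 and 38 fragments in RI tumours, against 2, 5, 0 and 6 in ICI tumours, or 97 in RI tumours together and 13 in ICI tumours together. The lowest RI level was 0.1996 FPKM and the highest ICI level was 0.0683 FPKM. The count of 0 in ICI 3 allows up to 3 fragments, or 0.0396 FPKM, by counting error alone. The adjusted p without the filter was 0.117. Fasl, the ligand of Fas, lies 275399 bases further along the same chromosome and overlapped between the groups, at 0.305 to 1.17 FPKM in RI tumours and 0.134 to 0.658 FPKM in ICI tumours.

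Tnfsf15 (chr4:63727084-63745113), the ligand TL1A of endothelial cells, had 0.146, 0.165, 0.274 and 0.390 FPKM in RI tumours, against 0.0208, 0.0851, 0.0327 and 0.0726 FPKM in ICI tumours. All its values were low and its adjusted p without the filter was 0.198. Its neighbour Tnfsf8, the ligand of CD30, was 1.53 FPKM in RI 5, 0.243 to 0.457 FPKM in the other RI tumours and 0.0651 to 0.319 FPKM in ICI tumours. Tnfsf11, the ligand RANKL of bone and mammary epithelium, ranged from 0.248 to 1.61 FPKM in RI tumours and from 0.0136 to 1.26 FPKM in ICI tumours, with ICI 1 lowest. Lta, the soluble lymphotoxin beside Tnf, had 0.0397 to 0.831 FPKM in RI tumours and 0.295 to 1.56 FPKM in ICI tumours. Tnfsf13 and Tnfsf13b, the ligands APRIL and BAFF, had 0.504 to 1.29 and 0.116 to 0.317 FPKM in RI tumours and 0.150 to 0.747 and 0.159 to 1.02 FPKM in ICI tumours. Of the T cell ligands, Cd40lg had 14 fragments in RI tumours together and 2 in ICI tumours together, and Cd70 had 9 and 5. With no filter 0 of these 17 genes were called, with pseudocounts of 0.1, 1 and 5 alike, where limma with a pseudocount of 1 called 0.592% of all rows higher and 0.159% lower. Of the 17, 3 had an unadjusted p under 0.05 and a higher level in RI tumours, Tnfsf4, Tnfsf18 and Tnfsf15, and 1, Tnfrsf25, had a lower one. In that fit 1.93% of the genes below the filter passed this threshold with a higher level and 3.02% with a lower one. Those genes were not matched in level either. Among the tested genes, in the main fit, 20.4% and 15.5% passed it, so nothing is read from this count.

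**Figure D5:**
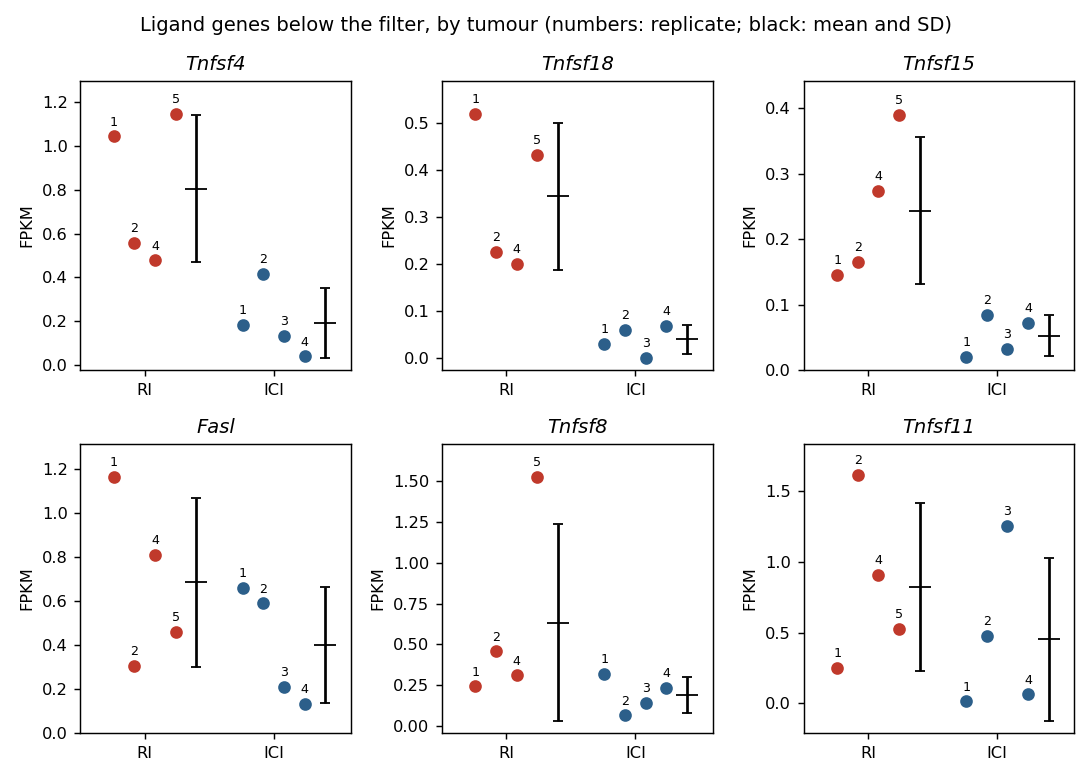
FPKM of 6 ligand genes below the filter in each tumour (numbers give the replicate), RI in red and ICI in blue, with the mean and SD in black. Tnfsf4, Tnfsf18 and Tnfsf15 have all RI tumours above all ICI tumours, at levels under 1.2 FPKM, whereas Fasl, Tnfsf8 and Tnfsf11 overlap.

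As no ligand was called in the test used here, none could be called together with its receptor. Tnfrsf1b rose, while Tnf had a difference of -0.31 and Tnfrsf1a was not called. Tnfrsf14 rose, and its ligand Tnfsf14 had a difference of -0.59, or 0.14 without ICI 1. Tnfrsf12a and Tnfsf12 both had negative differences that missed the threshold. Tnfsf4 had a difference of 0.59 in the fit without the filter and its receptor Tnfrsf4 one of -0.70 in the filtered fit, neither of them called. The contrast between a ligand and its receptor was not tested.

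Among the adaptors and kinases that act directly below the receptors, 5 of 24 rose and 2 fell, all of them tested, where 11.1% of all genes were higher and 6.6% lower. Their median difference was 0.08, against 0.01 for all genes tested. On TPM none of these 7 calls was kept (0 rose, 0 fell), and rescaled to annotated fragments 6 rose and 2 fell. Traf3, an adaptor that restrains the alternative NF-kB pathway, averaged 15.9 ± 1.62 FPKM in RI tumours and 9.61 ± 1.597 FPKM in ICI tumours (limma adjusted p = 0.0207). Cyld, a deubiquitinase that dampens NF-kB, averaged 6.66 ± 0.740 FPKM in RI tumours and 4.21 ± 0.585 FPKM in ICI tumours (adjusted p = 0.0263). The kinase Map3k7, known as TAK1, averaged 12.8 ± 1.31 FPKM in RI tumours and 8.75 ± 0.348 FPKM in ICI tumours (adjusted p = 0.0267). Tradd, the adaptor of Tnfrsf1a, fell to 10.6 ± 2.14 FPKM in RI tumours, against 16.6 ± 1.93 FPKM in ICI tumours (adjusted p = 0.0369).

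Of the 9 NF-kB subunits and inhibitors none was called by limma, with a median difference of -0.19. An unadjusted p under 0.05 was found for 3 of them, and for 35.9% of all genes tested. Nfkbib, an inhibitor of NF-kB, came nearest at 12.6 ± 1.94 FPKM in RI tumours and 18.7 ± 3.00 FPKM in ICI tumours (adjusted p = 0.05001). With upper-quartile scaling 1 of the 9 fell, and rescaled to annotated fragments 1 rose and 1 fell. Of 16 genes known as NF-kB targets of TNF, 14 were tested and 1 rose, with a median difference of 0.09, where 11.1% of all genes were higher. On TPM and with upper-quartile scaling 2 rose and 1 fell, and rescaled to annotated fragments 3 rose and 1 fell. The gene that rose in the test used here was Vcam1, an adhesion molecule of activated endothelium, at 21.6 ± 5.46 FPKM in RI tumours and 9.17 ± 4.34 FPKM in ICI tumours (difference 1.22, limma adjusted p = 0.0314). Tnfaip3, the feedback inhibitor A20, had 11.5 ± 2.64 FPKM in RI tumours and 6.99 ± 1.78 FPKM in ICI tumours (adjusted p = 0.0513). The cytokine Il1b had 7.85 ± 4.37 FPKM in RI tumours and 24.3 ± 10.01 FPKM in ICI tumours (adjusted p = 0.0536), and the chemokine Ccl2 had 85.8 ± 30.6 FPKM in RI tumours and 35.8 ± 26.7 FPKM in ICI tumours (adjusted p = 0.0742).

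Among 10 genes of the extrinsic and mitochondrial death pathways, all tested, 1 rose and none fell, with a median difference of 0.29. The gene that rose was Apaf1, which assembles the apoptosome of the mitochondrial pathway. No gene of this list that acts at the receptors was called. Apaf1 averaged 5.69 ± 0.389 FPKM in RI tumours and 3.82 ± 0.649 FPKM in ICI tumours (limma adjusted p = 0.0380). Bid, which links death receptors to mitochondria, had an adjusted p of 0.0730, and Fadd, which death receptors recruit, one of 0.151. The number of genes in this list that rose was 0 on TPM, and 2 with upper-quartile scaling or rescaled to annotated fragments. Of 10 p53 target genes, 3 rose and 1 fell, against 0 and 0 on TPM. For comparison with each list of this paragraph, 11.1% of all genes tested were higher and 6.6% lower. On TPM these shares were 1.43% and 0.655%. With lists this short, nothing is read from the counts. Ccng1, Zmat3 and Aen rose, with Ccng1 at 20.5 ± 2.28 FPKM in RI tumours and 12.4 ± 1.56 FPKM in ICI tumours (adjusted p = 0.0171). Bax, which permeabilises mitochondria, fell to 28.2 ± 5.89 FPKM in RI tumours, against 51.9 ± 3.12 FPKM in ICI tumours (adjusted p = 0.0162). Of 5 genes linked to the shedding of TNF and other ligands, 2 rose, against 0 on TPM. The sheddase Adam10 averaged 35.4 ± 3.05 FPKM in RI tumours and 20.7 ± 4.13 FPKM in ICI tumours (adjusted p = 0.0200), the protease Sppl2a had an adjusted p of 0.0498, and the TNF-converting enzyme Adam17 missed the threshold with 0.107.

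A further 4 superfamily genes, Eda, Eda2r, Relt and Tnfsfm13, are in the table under names the rule does not match, and 0 of them were called. Eda2r, a receptor of ectodysplasin and a p53 target, had 0.314 to 0.850 FPKM in RI tumours and 0.0773 to 0.167 FPKM in ICI tumours, with no overlap, below the filter. Its adjusted p without the filter was 0.0950. Relt, a receptor found in lymphoid tissue, had 1.85 to 3.98 FPKM in RI tumours and 20.6 FPKM in ICI 1, with 1.78 to 3.36 FPKM in the other ICI tumours (adjusted p = 0.650).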

How the data were processed

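The authors deposited 1 table of FPKM, with 1 column per tumour. Per the submitters' processing notes HISAT2 and GRCm38 (mm10) were used; the counter, annotation release and filters were not given in the sources used here. Groups came from the sample titles. Gene positions, exon lengths and the whole fragments behind each FPKM were taken from GENCODE M21; between 98.6% and 98.8% of values of up to 50 fragments lay within 0.05 of a whole number. RI was compared with ICI by limma 3.58.1 (R 4.3.3; lmFit and eBayes, trend and robust variance on, two-sided) on log2(FPKM + 1), which understates changes of low genes, over the 13439 genes that reached 1 FPKM in 4 or more tumours, adjusted by Benjamini-Hochberg over all of them. Genes below this filter were fitted with all 32098 rows. The fit was tested on simulated data. Every pair of libraries differed by more than sampling noise. The members, lists, roles and settings were chosen with earlier results of these data known. Every family gene could be named; from a pathway list, at most the 4 of lowest unadjusted p. Rescaling to annotated fragments was added after seeing the data. No batch is labelled. Fragment counts and floors carry counting error only.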

Additional observations from a re-analysis of the deposited data

Results flagged for a closer look

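Within a group of 4 tumours, the highest or lowest value was set apart where its gap to the nearest other value exceeded, as a share of the group's range, Dixon's critical value for 4 samples, among family genes with at least 10 fragments in the group. Chance sets apart about 1 in 20 groups. In ICI 1 this held for 7 genes, at 52.8 FPKM for Ltb, 19.4 FPKM for Fas, 13.03 FPKM for Tnfsf14, 7.53 FPKM for Tnfsf12, 5.33 FPKM for Tnfrsf13b, 5.02 FPKM for Tnfrsf21 and 1.07 FPKM for Tnfrsf13c, each above the other ICI tumours. The low value of Tnfrsf1b in ICI 4, 13.2 FPKM, lay far from the other ICI tumours, and this is a tumour whose removal ended the call of that gene. Among RI tumours, Tnfrsf11a in RI 2 (2.49 FPKM) and Tnfsf8 in RI 5 (1.53 FPKM) lay far above the rest.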

How the results depend on the processing

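The 4 receptors that rose all rose again with pseudocounts of 0.1 and 5, with a length and GC correction, with eBayes without trend and robust variance, and among 5 or 6 genes with upper-quartile scaling, median centring, array weights, voom and rescaling to annotated fragments (5). The count was 0 with no filter, 2 on TPM (Ngfr and Tnfrsf19), 3 with a mean of at least 5 FPKM, which leaves Tnfrsf19 out, and 5 without both ICI 1 and RI 4, which adds Tnfrsf21 and Tnfsf10 but not Tnfrsf14 (adjusted p = 0.0544). Leaving out 1 tumour at a time gave 0 to 6 that rose. The number was 0 without ICI 4, 1 without RI 1 or RI 2, 2 without RI 4 or RI 5, and 6 without ICI 1. Of all genes tested, 11.1% were called higher in the test used here and 1.81% without ICI 4. This share was 4.15%, 3.04%, 8.85% and 4.77% without RI 1, 2, 4 and 5. Without ICI 1, 2 and 3 it was 11.7%, 8.33% and 10.7%. The loss of calls was therefore not particular to these receptors. With upper-quartile scaling, median centring and array weights the share was 13.2%, 11.2% and 20.3%. The count that fell, 0, became 1 (Tnfrsf12a) with a mean of at least 5 FPKM, upper-quartile scaling, median centring, array weights, voom, rescaling to annotated fragments and without both ICI 1 and RI 4, and was 0 to 1 with 1 tumour left out. The adjusted p of the 4 genes without the filter was 0.0556 to 0.0891, over more than double the number of rows; the other causes were not tested.

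Samples of the same replicate number did not deviate together (correlations of -0.0923, -0.12 and -0.124). Samples of different number had correlations of -0.152 to 0.205. With so few pairs these values cannot settle whether the numbers pair the samples, and the labels state no pairing. With the replicate block, which keeps 6 of the 8 tumours, 0 family genes rose and 0 fell, as with the replicate block with length and GC correction (0 and 0); the block leaves 0.164% of all genes called.

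Differences changed sign for Fas with array weights (0.159), without ICI 1 (0.207) and without both ICI 1 and RI 4 (0.356), for Ltb without ICI 1 (0.034), for Tnfsf14 under the same 3 settings (0.067, 0.136 and 0.179) and for Tnf with array weights (0.026); the cause was not tested. With 1 tumour left out at a time they spanned -0.613 to 0.207 for Fas, -1.193 to 0.034 for Ltb and -0.869 to 0.136 for Tnfsf14. Differences under 0.3 in size, 10 genes, are not given because 31 of their 225 values changed sign. Over the pathway and cell type lists together 23 genes rose and 9 fell, and on TPM 13 and 3. Of all genes tested 11.1% were higher and 6.6% lower, and on TPM 1.43% and 0.655%. The all-gene median shifted to 0.11 on TPM, against 0.01 on FPKM. Rescaled to annotated fragments, a setting chosen after seeing the data, 29 genes of the lists rose and 11 fell.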
